A study of Mus musculus with 8 samples.

Results

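Matrix-rich mesenchymal cells were examined in a single-cell RNA library of wild-type (WT) mouse embryonic stem cells differentiated for 5 days. Each of these cells held at least 3 unique molecular identifiers (UMIs, counts of single captured RNA molecules) of Postn and at least 2 of Lum. It also held no UMI of Pitx1, less than 1% of its UMIs in the Hba- and Hbb- globin genes, and at most 15% in mitochondrial genes. The rule took 431 of 4392 WT cells within the mitochondrial limit, a share of 9.81% (exact binomial 95% interval 8.95 to 10.7%), out of 7618 deposited cells in the series. The Postn, Lum, Pitx1 and globin counts chose the cells, so their levels are given as a description and support nothing.

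The study followed mouse embryonic stem cells towards the cardiac lineage and asked what TET proteins, which oxidise 5-methylcytosine in DNA, contribute to that path. The WT cells were E14 embryonic stem cells, a male line, carrying an EmGFP reporter at Nkx2-5. They were grown on mitomycin-treated mouse embryonic fibroblast feeders, differentiated as hanging-drop embryoid bodies without leukemia inhibitory factor, and received no other treatment. The second library, labelled TKO for a triple knockout of the Tet genes, came from the same day and the same protocol, and it served only to count cells that meet the rule. Each genotype had 1 library, so no difference could be tested, and every interval covers counting error only.

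Mesenchymal cells surround themselves with extracellular matrix, in which fibrillar collagens form the fibres. Small leucine-rich proteoglycans such as lumican (Lum) and decorin (Dcn) bind those fibres and limit their width, while periostin (Postn) links collagen to other matrix proteins and to integrins. In the early mouse embryo, Hand1 and Foxf1 are known from lateral plate and extraembryonic mesoderm, the tissues that give rise to the mesenchyme of the body wall, gut wall, yolk sac, amnion and allantois.

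The upstream windows of Postn, Col3a1 and Col1a2 are shown because these genes are among those that characterise the cells and have an entry in the RefSeq promoter table. Each line gives the 250 bases before the annotated start on the plus strand of GRCm38.p6, at chr3:54360857-54361106 for Postn, chr1:45311288-45311537 for Col3a1 and chr6:4505368-4505617 for Col1a2. Capitals mark the letters TATAAA in Postn and Col3a1 and CCAAT in Col1a2.
Postn: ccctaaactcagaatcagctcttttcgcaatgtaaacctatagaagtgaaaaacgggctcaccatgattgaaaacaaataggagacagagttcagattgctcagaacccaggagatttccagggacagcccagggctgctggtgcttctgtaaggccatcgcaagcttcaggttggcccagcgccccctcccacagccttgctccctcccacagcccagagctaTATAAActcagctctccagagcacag
Col3a1: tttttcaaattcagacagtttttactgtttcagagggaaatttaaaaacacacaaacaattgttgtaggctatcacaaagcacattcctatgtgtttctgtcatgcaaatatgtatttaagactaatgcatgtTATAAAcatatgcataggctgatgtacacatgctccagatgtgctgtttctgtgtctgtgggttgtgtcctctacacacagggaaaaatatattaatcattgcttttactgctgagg
Col1a2: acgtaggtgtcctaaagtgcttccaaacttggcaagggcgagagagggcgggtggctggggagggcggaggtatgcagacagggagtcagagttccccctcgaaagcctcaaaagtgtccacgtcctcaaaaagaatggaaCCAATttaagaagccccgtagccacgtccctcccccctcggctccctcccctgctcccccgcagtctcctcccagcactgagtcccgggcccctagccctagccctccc
The Postn match starts 26 bases before the annotated start, the Col3a1 match 117 bases before it and the Col1a2 match 109 bases before it. Of 21 genes looked up, 11 had an entry, and some had more than 1 annotated start; for Postn the window with the match is shown. With both strands searched, TATAAA stood in 4 of the 14 windows of these genes, against 12.4% of all 32851 windows of the same length. CCAAT stood in 2 of the 14, against 33.8% of all windows. TGACTCA, the letters of an AP-1 site, stood in 1 of the 14, against 4.46% of all windows. A match describes letters in the window and not a bound site.

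The matrix-rich cells held a median of 8221 UMIs and 2672 genes, against 7812 UMIs and 2407 genes in the other 3961 WT cells. Their median mitochondrial share was 3.46%, against 3.44% in the other WT cells, and their median share of ribosomal protein genes was 25.9%, against 30.6%. The Postn count had a median of 7 and reached 27 in the matrix-rich cells, and the Lum count had a median of 4 and reached 36. In the whole WT library, 2506 cells held a Postn UMI and 1369 held a Lum UMI. Both minimums were met by 549 cells, of which 106 were set aside by a Pitx1 UMI alone and 12 by globin. In the library labelled TKO, 1 of 3197 cells met the rule, a share of 0.0313% (exact interval 0.000792 to 0.174%). In that library 19 cells held any Postn UMI and 31 held any Lum UMI. Tet1 stood at 10.3 counts scaled to a common total (CPM, UMIs of a gene per 1000000 UMIs summed over the cells of a set) in the matrix-rich cells, 12.6 CPM in the other WT cells and 22.8 CPM in the library labelled TKO. Tet2 stood at 5.90 CPM in the matrix-rich cells, 6.93 CPM in the other WT cells and 4.60 CPM in the library labelled TKO. Tet3 stood at 26.4 CPM in the matrix-rich cells, 29.5 CPM in the other WT cells and 20.3 CPM in the library labelled TKO. Counts of a whole gene do not check a deletion whose position is not given in the sources used here. The headers of both tables shared 21 barcode sequences.

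All 3 other markers given for these cells were higher in them than in the other WT cells. These markers were named with earlier results of these data known, so their levels too are a description and support nothing. Col3a1, the chain of type III collagen, stood at 613 CPM (exact Poisson interval 589 to 638) in matrix-rich cells, against 193 CPM (188 to 198) in the other WT cells, a ratio of 3.17 (3.03 to 3.33). Smoc2, a matrix-associated calcium-binding glycoprotein, stood at 412 CPM in matrix-rich cells and 186 CPM in the other WT cells, a ratio of 2.22 (2.10 to 2.34). Tdo2, the liver-known enzyme that opens the ring of tryptophan, stood at 222 CPM in matrix-rich cells and 112 CPM in the other WT cells, a ratio of 1.98 (1.84 to 2.13). For the selected genes, Postn stood at 831 CPM in matrix-rich cells and 227 CPM in the other WT cells, and Lum at 563 CPM and 61.9 CPM.

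Shares of cells with a UMI showed how widely the markers were spread. After every cell was thinned to 4000 UMIs, 421 matrix-rich cells, 3598 other WT cells and 65 globin-rich cells remained, and 10, 363 and 11 shallower cells were left out. Globin-rich cells, with at least 10% of their UMIs in globin genes, should lack matrix genes and show the level that free RNA gives. Median depth before thinning was 8367 UMIs in the matrix-rich cells used, 8167 in the other WT cells and 8331 in the globin-rich cells. A Col3a1 UMI was present in 81.0% of matrix-rich cells (92.8% without thinning), 36.9% of other WT cells (50.9%) and 1.54% of globin-rich cells (1.32%). A Smoc2 UMI was present in 75.5% of matrix-rich cells (88.2% without thinning), 41.3% of other WT cells (52.3%) and 3.08% of globin-rich cells (3.95%). A Tdo2 UMI was present in 47.5% of matrix-rich cells (63.3% without thinning), 26.5% of other WT cells (37.3%) and none of the 65 globin-rich cells (2.63% of all 76 without thinning), where 3 of 65 cells would be 4.62% and the exact interval reaches 5.52%. Dcn, with 26.4% of matrix-rich cells (43.2% without thinning), 8.06% of other WT cells (13.9%) and 1.54% of globin-rich cells (1.32%), was seen in a minority of the cells even where it was highest. Hand1 was present in 93.6% of matrix-rich cells, 72.6% of other WT cells and 1.54% of globin-rich cells after thinning.

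**Figure D1:**
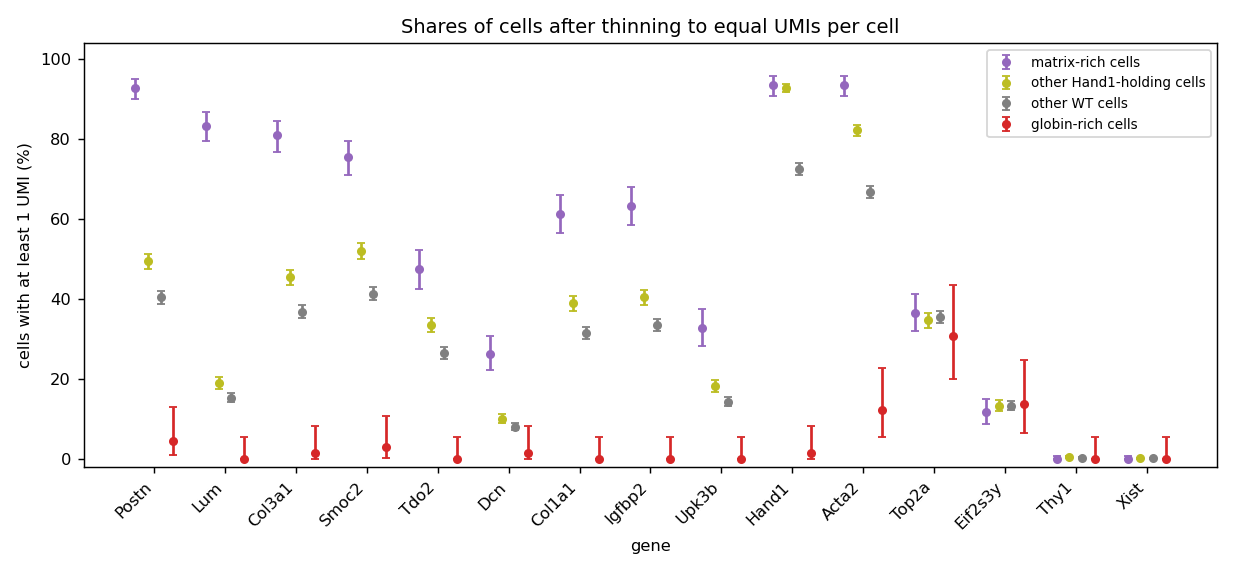
Share of cells with at least 1 UMI of each gene (%, vertical axis) after thinning to 4000 UMIs per cell, in matrix-rich cells, other Hand1-holding cells, all other WT cells and globin-rich cells; bars are exact binomial 95% intervals. Col3a1 reaches 81.0% in matrix-rich cells, 36.9% in the other WT cells and 1.54% in globin-rich cells, while Top2a lies at 36.6% in matrix-rich cells and 35.5% in the other WT cells.

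Of the genes that reached 10 CPM in either set, 97 of 7725 (1.26%) were at least 2-fold higher in matrix-rich cells than in the other WT cells and 165 (2.14%) were at least 2-fold lower. The cells were chosen from this contrast, so the counts describe it and no more is read from them. The median log2 ratio of those genes was 0.14, so ratios near 1.1 mark no difference from the bulk of genes. Centred on the median ratio, the counts were 52 higher and 195 lower of 7725. With totals that leave out mitochondrial and ribosomal protein genes they were 73 higher and 253 lower of 8729. Among genes with at least 50 CPM, and after the rule genes were left out, Dcn had the highest ratio, with 84.7 CPM in matrix-rich cells and 22.7 CPM in the other WT cells (ratio 3.73, 3.27 to 4.25). Next stood Fam46a, a poly(A) polymerase gene, with 99.1 CPM in matrix-rich cells and 29.0 CPM in the other WT cells. After Col3a1 came Agtr1a, an angiotensin II receptor, with 53.4 CPM in matrix-rich cells and 18.2 CPM in the other WT cells, and Spon2, a secreted matrix protein, with 105 CPM and 37.3 CPM. Ratios from 2.26 to 2.68 followed for Upk1b, Col5a2, Col1a1, Bicc1, Hpgd, Pcp4, Igfbp2, Emp3, Upk3b and P4ha2. Hpgd breaks down prostaglandins, Igfbp2 binds insulin-like growth factors, and Upk1b and Upk3b are uroplakin genes also known from mesothelium.

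The lowest ratios belonged to genes of other lineages. Ttr, a transport protein of visceral endoderm and liver, stood at 9.75 CPM in matrix-rich cells and 354 CPM in the other WT cells (ratio 0.0275, 0.0195 to 0.0378). S100g, Chchd10, Spink1, Emb, Ctsh, Fxyd2 and Rbp4 were also among the 12 lowest, with ratios between 0.0337 and 0.0827. Car2, Alas2 and Cited4 were among them too, with ratios between 0.0656 and 0.0923, and Alas2, an enzyme of heme synthesis, belongs to red cell development. For Alas2 and Cited4 the direction turned when the comparison was limited to other cells with a Hand1 UMI and less than 1% globin, with log2 ratios of 0.23 and 0.71. In the comparison with all other WT cells, the globin limit applied to the matrix-rich cells alone. It left out 12 cells that met both minimums, and globin-rich cells held at most 1 Postn and 1 Lum UMI. The part of the limit in these ratios was not tested.

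**Figure D2:**
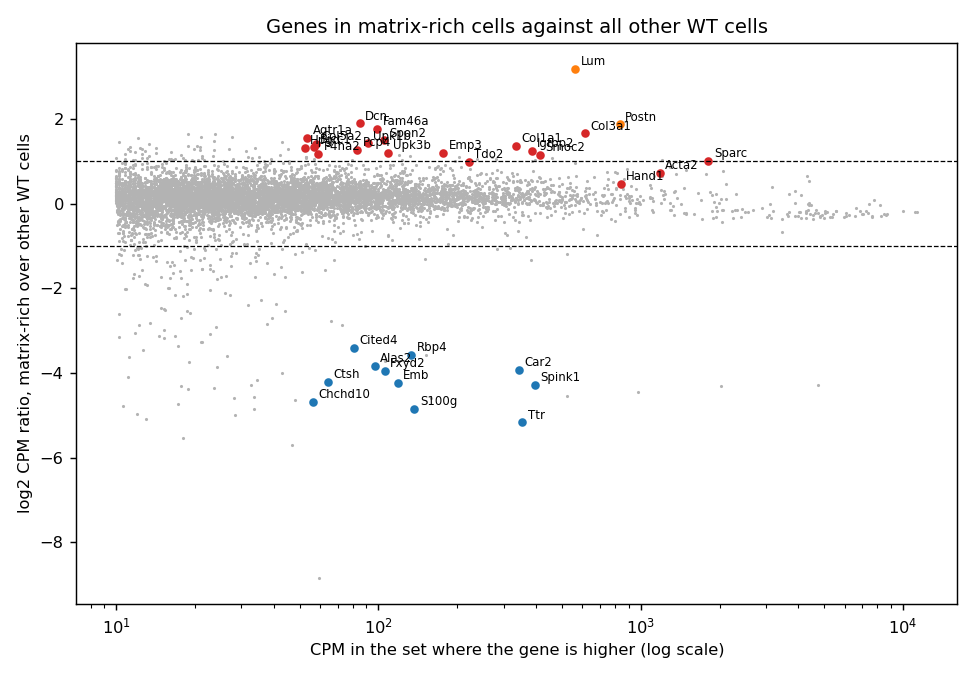
Each point is a gene with at least 10 CPM in the higher set; the horizontal axis is that CPM (log scale) and the vertical axis is the log2 CPM ratio of matrix-rich over other WT cells, with 0.5 UMIs added to each count. Dashed lines mark 2-fold; named genes are in red (higher), blue (lower) or orange (Postn and Lum, used by the rule), with Dcn at a ratio of 3.73 and Ttr at 0.0275.

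The collagens stood above the bulk of genes as a group. In the list of fibrillar collagens, 8 of 11 genes had at least 20 UMIs, 4 of them were at least 2-fold higher in matrix-rich cells and 1 was at least 2-fold lower, with a median log2 ratio of 0.93 against 0.096 over all 12915 genes with that many UMIs. Counts and medians of lists rest on ratios with 0.5 UMIs added to each count, while the ratios printed for single genes have none added. Of those 12915 genes, 2.82% were at least 2-fold higher and 7.84% at least 2-fold lower. Col1a1 stood at 335 CPM in matrix-rich cells and 130 CPM in the other WT cells (ratio 2.57), and Col1a2, its partner chain in type I collagen, at 384 CPM and 190 CPM (2.02, 1.91 to 2.14). Col5a2, a chain of type V collagen that starts fibres, stood at 57.8 CPM in matrix-rich cells and 21.7 CPM in the other WT cells, and Col5a1, its partner, at 81.9 CPM and 45.5 CPM (1.80, 1.59 to 2.03). Col11a1 and Col27a1 both had a ratio of 1.57. Col2a1, the cartilage collagen, had 1 UMI in matrix-rich cells and 36 in the other WT cells. Of 14 measured genes of the other collagens, 3 were at least 2-fold higher, Col9a2, Col16a1 and Col6a3, and 1 was at least 2-fold lower, Col15a1, which had no UMI in matrix-rich cells against 22 in the other WT cells. That last call rests on the 0.5 UMIs added to a count of 0.

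Small leucine-rich proteoglycans had 4 of 14 genes measured. Besides Lum and Dcn, Fmod (fibromodulin) stood at 10.3 CPM in matrix-rich cells and 3.78 CPM in the other WT cells (ratio 2.72, 1.86 to 3.91), and Bgn had a ratio of 1.46 (0.667 to 2.88) that includes 1. The genes that fold, hydroxylate and crosslink collagen were also above the bulk, with 22 measured, 21 above a log2 ratio of 0 and a median of 0.76. Of these, 5 were at least 2-fold higher and 1 at least 2-fold lower, against 1 higher and 1 lower in the comparison with the other Hand1-holding cells, where the median was 0.51. P4ha2, a prolyl hydroxylase subunit, stood at 58.8 CPM in matrix-rich cells and 26.0 CPM in the other WT cells (2.26, 1.94 to 2.62), and Loxl2, a crosslinking lysyl oxidase, at 123 CPM and 60.1 CPM (2.05, 1.85 to 2.27). Sparc, a collagen-binding glycoprotein, stood at 1813 CPM in matrix-rich cells and 896 CPM in the other WT cells, and Serpinh1, the collagen chaperone, at 1491 CPM and 865 CPM (1.72, 1.68 to 1.77). Lox itself had the highest log2 ratio of those 22 genes, 2.34, on few UMIs, 8 in matrix-rich cells and 14 in the far larger set of other WT cells. All 18 secretory pathway genes measured lay above a log2 ratio of 0, with a median of 0.60 and 1 of them past 2-fold. That one was Sec24d, a coat protein of export vesicles, at 12.6 CPM in matrix-rich cells and 6.01 CPM in the other WT cells. Creb3l1, a transcription factor known for collagen secretion, stood at 122 CPM in matrix-rich cells and 63.6 CPM in the other WT cells.

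Among 29 measured matrix glycoproteins, 9 were at least 2-fold higher and 2 at least 2-fold lower, with a median log2 ratio of 0.77. Postn, which the rule used, is 1 of the 9. Besides Postn and Smoc2, Tnc (tenascin C) stood at 18.7 CPM in matrix-rich cells and 6.04 CPM in the other WT cells (ratio 3.10, 2.34 to 4.08), and Cthrc1 at 42.9 CPM and 15.6 CPM (2.74, 2.29 to 3.27). Fn1, fibronectin, stood at 1297 CPM in matrix-rich cells and 710 CPM in the other WT cells (1.83, 1.77 to 1.88). Vcan, the hyaluronan-binding proteoglycan versican, had a ratio of 1.12 (0.995 to 1.25) and Hapln1, its link protein, one of 0.824 (0.645 to 1.04). Smoc1, the relative of Smoc2, had 2 UMIs in matrix-rich cells and 56 in the other WT cells. The 15 basement membrane genes held no gene past 2-fold in either direction. There Col4a1 and Col4a2 stood below the other WT cells, with ratios of 0.730 (0.571 to 0.921) and 0.718 (0.587 to 0.872), while Nid2 had 1.71 (1.44 to 2.02). Of 16 measured matrix receptors, Ddr2, a collagen-binding receptor kinase, was the one past 2-fold higher, with 17 UMIs in matrix-rich cells, and Itgb3 and Itga6 were the 2 past 2-fold lower. Matrix proteases and their inhibitors had a median log2 ratio of 0.69 over 15 genes, with 2 past 2-fold higher, among them the aggrecan-cleaving protease Adamts5 with 8 UMIs.

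**Figure D3:**
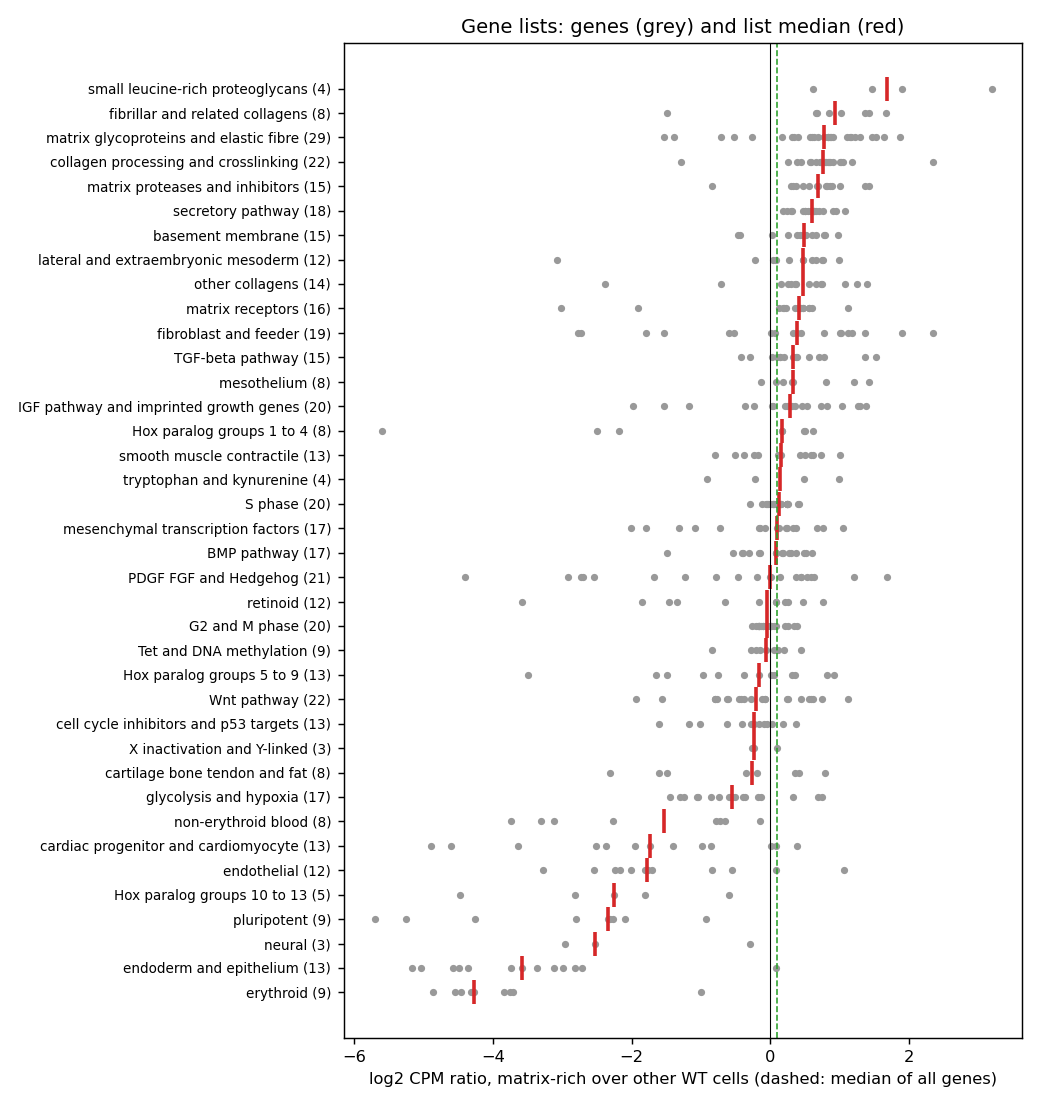
Log2 CPM ratio of matrix-rich over other WT cells (horizontal axis) for the genes of each list with at least 20 UMIs (grey points, number in parentheses) and the list median (red), with 0.5 UMIs added to each count; the dashed line is the median over all such genes, 0.096. Small leucine-rich proteoglycans (which hold the rule gene Lum) and fibrillar collagens lie at the top, and the erythroid list, which holds globin genes limited by the rule, at the bottom with a median of -4.28 (-0.10 against the Hand1-holding cells with the same globin limit).

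The position of the cells among mesodermal types was read from marker lists. Hand1 stood at 839 CPM in matrix-rich cells and 609 CPM in all other WT cells (ratio 1.38, 1.33 to 1.43), but at 798 CPM in the other Hand1-holding cells. Foxf1 (1.69, 1.47 to 1.92), Tbx20 (1.68, 1.47 to 1.91) and Hand2 (1.39, 1.26 to 1.53), further mesodermal transcription factors, also lay above the other WT cells. In the lateral and extraembryonic mesoderm list, 10 of 12 measured genes lay above a log2 ratio of 0, with a median of 0.47. None of the 12 was at least 2-fold higher and 1 was at least 2-fold lower. Against the other Hand1-holding cells, which Hand1 chose, 7 of 12 lay above 0, with a median of 0.12, and again none was higher and 1 lower. Of 17 measured mesenchymal transcription factors, 1 was at least 2-fold higher, Foxf2 with 8 UMIs and an interval of its ratio from 0.791 to 4.33, and 4 were at least 2-fold lower. Those 4 were Runx1 (0.242), Prrx1 (0.233), Foxc2 (0.320) and Twist1 (0.393, 0.259 to 0.574). Twist1 stood at 7.19 CPM in matrix-rich cells and 61.1 CPM in 408 other WT cells with at least 2 Pitx1 UMIs. The rule keeps Pitx1 out of the matrix-rich cells alone, and its part in that ratio was not tested. Snai2, a factor of epithelial-mesenchymal transition, had a ratio of 1.59 (1.47 to 1.72), and Prrx2, Zeb1, Snai1 and Msx2 each had an interval that includes 1. Smooth muscle genes had a median log2 ratio of 0.15 over 13 genes with none past 2-fold. Acta2, smooth muscle actin, stood at 1184 CPM in matrix-rich cells and 713 CPM in the other WT cells, while Des (0.877, 0.733 to 1.04) and Cnn1 (0.664, 0.279 to 1.36) did not stand above them.

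Of 13 cardiac genes 8 were at least 2-fold lower and none higher, while 3 lay above a log2 ratio of 0. The summed level of the list was 291 CPM in matrix-rich cells and 349 CPM in the other WT cells. Nkx2-5, the cardiac factor that carries the reporter, had no UMI in matrix-rich cells and 128 in the other WT cells, and Myl7, an atrial myosin light chain, had 4 UMIs in matrix-rich cells and 942 in the other WT cells. Of the endothelial list, 8 of 12 were at least 2-fold lower and 1, Tek, was at least 2-fold higher, at 56.7 CPM in matrix-rich cells and 27.3 CPM in the other WT cells. Against the other Hand1-holding cells 2 of 12 were at least 2-fold lower and none higher, with a median log2 ratio of -0.60. Cdh5, which defines endothelium, had 14 UMIs in matrix-rich cells. Endoderm and epithelium genes were at least 2-fold lower in 12 of 13, and pluripotency genes in 8 of 9. Posterior Hox genes had few UMIs or none, and Hoxa10, Hoxa13 and Hoxd10 had none in matrix-rich cells, where 4 of 5 measured genes of groups 10 to 13 were at least 2-fold lower. Of those 5 genes, 3 had no UMI in matrix-rich cells. The median log2 ratio of the 5 was -2.25, and -1.14 with each count of 0 set to 3 UMIs. In Hox groups 5 to 9 none of 13 was at least 2-fold higher and 3 were lower, with a median log2 ratio of -0.17. Of these Hoxb6 stood at 73.7 CPM in matrix-rich cells and 42.0 CPM in the other WT cells (1.75, 1.54 to 1.99). Hoxd9 stood at 5.13 CPM in matrix-rich cells and 55.6 CPM in the 408 other WT cells with at least 2 Pitx1 UMIs.

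Fibroblast and feeder genes were examined because the stem cells had grown on fibroblast feeders. Of 19 measured genes 6 were at least 2-fold higher in matrix-rich cells and 4 at least 2-fold lower, and the summed level was 1346 CPM in matrix-rich cells against 676 CPM in the other WT cells. The higher ones were Col1a1, Col1a2, Dcn, Lox, S100a4 and S100a6, of which the collagens, Dcn and Lox also stand in the matrix lists. At least 3 genes of the list were present in 65.1% of matrix-rich cells, 31.1% of other WT cells and none of the globin-rich cells after thinning. Thy1 and Ly6c1 had no UMI in matrix-rich cells, against 29 and 28 in the other WT cells, Prrx1 had 2 and Ccl2 had 10. Xist, which marks female cells, had no UMI in matrix-rich cells and 9 in the other WT cells. The matrix-rich cells held 3896028 UMIs in all, against 33633152 in the other WT cells. At that depth the counts of 0 for Thy1, Ly6c1 and Xist do not show that these genes were absent. The Y-linked gene Eif2s3y was present in 11.6% of matrix-rich cells, 13.3% of other WT cells and 13.8% of globin-rich cells.

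Mesothelial genes overlapped with the cells in part. Upk3b stood at 108 CPM in matrix-rich cells and 47.0 CPM in the other WT cells (ratio 2.31, 2.07 to 2.57), and Bnc1 had a ratio of 1.74 (1.53 to 1.98). Krt19 (1.24), Wt1 (1.12, 0.782 to 1.57) and Lrrn4 (0.905, 0.753 to 1.08) lay closer to the other WT cells. An Upk3b UMI was held by 199 of the 431 matrix-rich cells, or 46.2% (exact interval 41.4 to 51.0%). At least 3 genes of the mesothelium list were present in 10.2% of matrix-rich cells, 4.47% of other WT cells and none of the globin-rich cells after thinning. Among thinned matrix-rich cells, 138 held an Upk3b UMI and 283 did not. The cells with Upk3b stood higher in Upk1b (ratio 2.05, 1.49 to 2.83) and Igfbp2 (1.92, 1.65 to 2.24), and lower in Vcan (0.444, 0.279 to 0.683), Ptn (0.447, 0.283 to 0.681) and Meis2 (0.516, 0.350 to 0.745). Genes were ranked for this split only past a minimum above 50 CPM, without mitochondrial and ribosomal protein genes or names with Gm or Rik. Besides Upk3b, which made the split, the highest ratios in that ranking were those of Htra2 (2.09) and U2af2 (2.08). Glrx2 (2.05) was level with Upk1b, and Cdk1 and Phgdh also stood above Igfbp2. The mesothelial genes Krt19 (1.21) and Lrrn4 (1.39) had intervals that include 1. The share of all genes past 2-fold is not given for this split. For Col1a1 the ratio was 1.01 and for Col3a1 0.893 (0.784 to 1.01), and both intervals include 1. Smoc2 (1.39) and Dcn (1.44, 1.02 to 2.00) stood higher in the cells with Upk3b, as did the rule gene Lum (1.28, 1.13 to 1.46), while Postn stood lower (0.855, 0.765 to 0.955).

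The signalling lists each held genes on both sides of a ratio of 1. Their median log2 ratios were 0.32 for TGF-beta, 0.29 for IGF and imprinted genes, 0.09 for BMP, -0.01 for PDGF, FGF and Hedgehog, and -0.20 for Wnt. The IGF and imprinted list held 4 genes at least 2-fold higher, Igfbp2, H19, Plagl1 and Dlk1, and 3 at least 2-fold lower, Igf1, Igfbp6 and Igfbp7. Igf2, a fetal growth factor, stood at 887 CPM in matrix-rich cells and 505 CPM in the other WT cells (ratio 1.76, 1.69 to 1.82), and Igfbp2 at 384 CPM and 161 CPM. In the TGF-beta list 2 of 15 were at least 2-fold higher, among them the ligand Tgfb3 with 9 UMIs. The ligand Tgfb2 had a ratio of 0.742 (0.661 to 0.831). In the BMP list 10 of 17 lay above a log2 ratio of 0 and 1 was at least 2-fold lower, with a median of 0.09, and its targets Id1 and Id3 had 0.685 (0.632 to 0.741) and 0.806 (0.762 to 0.852). Wisp1, a matricellular target of Wnt signalling, stood at 132 CPM in matrix-rich cells and 61.0 CPM in the other WT cells (2.17, 1.96 to 2.39), while Axin2, a direct Wnt target, had a ratio of 0.567 (0.297 to 0.992). The Hedgehog target Gli1 had 2.27 (1.33 to 3.70) and the receptor Ptch1 stood at 61.3 CPM in matrix-rich cells and 40.9 CPM in the other WT cells, whereas Fgf3, Fgf8 and Spry1 were at least 2-fold lower. Pdgfra stood at 36.4 CPM in matrix-rich cells and 36.3 CPM in the other WT cells, and Pdgfrb had a ratio of 1.36 (1.12 to 1.63).

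Cell cycle genes did not set the cells apart, since none of 20 S phase and none of 20 G2 and M phase genes was past 2-fold. Top2a stood at 201 CPM in matrix-rich cells and 202 CPM in the other WT cells, and Mki67 was present in 19.5% of matrix-rich cells and 21.2% of other WT cells after thinning. Of 13 cycle inhibitors and p53 targets, 3 were at least 2-fold lower and none higher, with a median log2 ratio of -0.24. Against the other Hand1-holding cells 1 of the 13 was lower and none higher, 9 lay above 0, and the median was 0.07. Cdkn1a, an inhibitor of the cycle and target of p53, stood at 43.9 CPM in matrix-rich cells and 88.5 CPM in the other WT cells (0.496, 0.423 to 0.579). Glycolysis and hypoxia genes had a median log2 ratio of -0.56, with 5 of 17 at least 2-fold lower. Against the other Hand1-holding cells none of the 17 was, and the median was -0.17. Against all other WT cells the 5 were Egln3, Slc2a3, Pdk1, Hk1 and Bnip3, while Slc2a1, the other glucose transporter listed, had a ratio of 1.67 (1.60 to 1.73). Tet1 stood at 10.3 CPM in matrix-rich cells and 12.6 CPM in the other WT cells, Tet2 at 5.90 CPM and 6.93 CPM, and Tet3 at 26.4 CPM and 29.5 CPM, each with an interval of the ratio that includes 1. Dnmt3b, a de novo DNA methyltransferase, had a ratio of 0.550 (0.406 to 0.731).

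Levels of Col3a1 and Dcn differed in steps with the counts of Postn and Lum. Among cells without Pitx1 and with less than 1% globin, Col3a1 stood at 613 CPM in matrix-rich cells, 439 CPM in 178 cells with enough Postn and 1 Lum UMI, 344 CPM in 385 cells with enough Postn and no Lum, and 59.2 CPM in 1055 cells with neither. Dcn stood at 84.7 CPM in matrix-rich cells and at 57.5, 37.4 and 8.93 CPM in those same sets. Not every gene followed each step. Col1a2 stood at 384 CPM in matrix-rich cells and 391 CPM in the 178 cells. Tdo2 stood at 157 CPM in the 385 cells and 161 CPM in 714 cells below both minimums with at least 1 UMI of either gene. In 216 cells with enough Lum but under 3 Postn UMIs, Col3a1 stood at 461 CPM, Smoc2 at 494 CPM (460 to 529) and Tdo2 at 304 CPM (277 to 332), the last 2 above the matrix-rich cells. Within the matrix-rich cells, the 128 with at least 6 Lum UMIs had Col3a1 at 651 CPM (607 to 698) and Dcn at 130 CPM (111 to 152). Smoc2 stood at 479 CPM (441 to 520) and Tdo2 at 309 CPM (278 to 342) in those 128 cells, with intervals that overlap those of the 216 cells. The ribosomal protein share had a median of 24.2% in those 128 cells and 32.6% in the cells with neither gene, and its part in the other differences was not tested. The 23 cells just inside both limits had Col3a1 at 639 CPM, against 613 CPM in the 61 cells with 2 Postn UMIs and enough Lum and 439 CPM in the 178 cells with 1 Lum UMI.

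**Figure D4:**
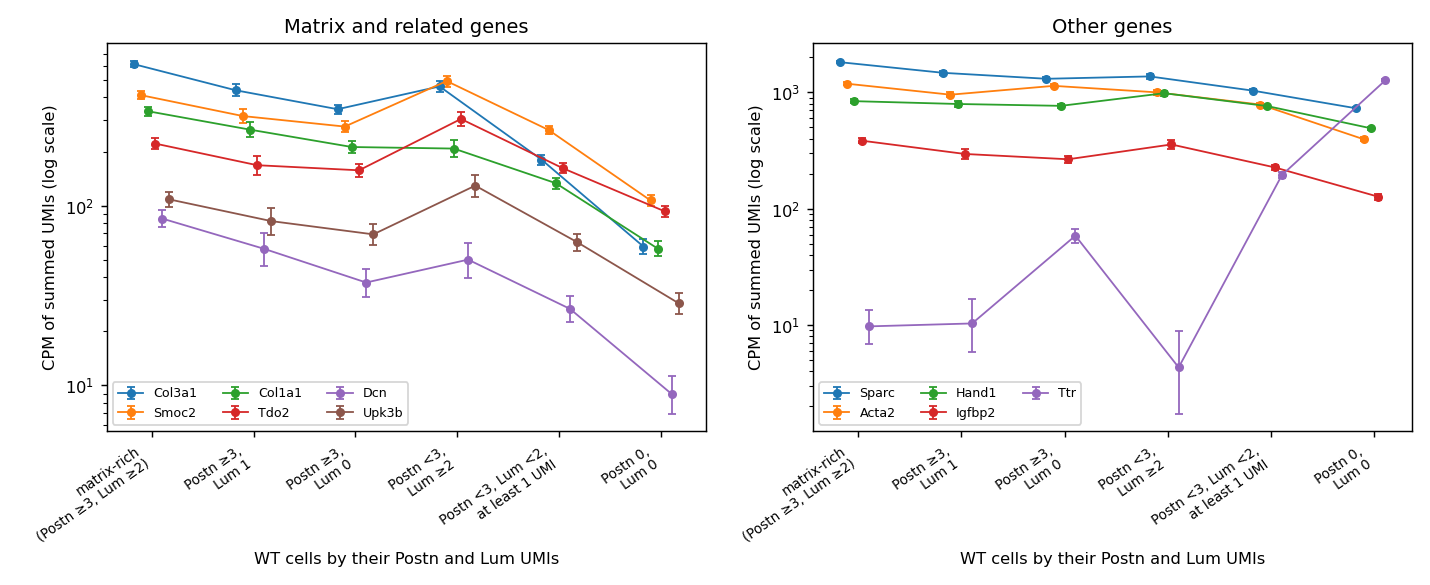
Summed CPM (log scale, vertical axis) of named genes in WT cells without Pitx1 and with less than 1% globin, grouped by Postn and Lum UMIs with the matrix-rich cells at the left; bars are exact Poisson 95% intervals and lines only join the points of a gene. Col3a1 lies at 613 CPM in matrix-rich cells and 59.2 CPM in cells with neither gene, Smoc2 and Tdo2 are higher in the cells with Lum of at least 2 and Postn under 3 than in the matrix-rich cells as a whole, and Ttr is highest where neither is present.

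A further set of 106 cells met the Postn, Lum and globin limits but held a Pitx1 UMI. Against them 51 genes (0.653%) were at least 2-fold higher and 73 (0.934%) at least 2-fold lower among genes with at least 10 CPM. Pitx1, which chose the 106 cells, was not left out of these counts. Those cells held a median of 10314.5 UMIs, against 8221 in the matrix-rich cells. They held 1286188 UMIs in all, so their levels near 10 CPM rest on few UMIs. Among genes with at least 50 CPM, Nnat had the highest ratio, with 58.0 CPM in matrix-rich cells and 14.8 CPM in the Pitx1-holding cells (3.93, 2.46 to 6.64), followed by Fam46a (2.02, 1.55 to 2.68), Spon2, Hpgd, Emp3 and Agtr1a. Fst, the activin antagonist follistatin, had the lowest, with 21.3 CPM in matrix-rich cells and 51.3 CPM in the Pitx1-holding cells (0.415, 0.297 to 0.583). Of genes under 50 CPM, Hoxc8 (0.249, 0.158 to 0.390) and Hoxd9 (0.275, 0.144 to 0.520) were lower in the matrix-rich cells. Hand1 (1.00, 0.935 to 1.07) and Dcn (1.07, 0.853 to 1.35) had intervals that include 1. Col3a1 had a ratio of 1.30 (1.19 to 1.42). With at least 20 UMIs, 1.71% of all genes were at least 2-fold higher and 1.39% at least 2-fold lower. None of 7 fibrillar collagens and none of 21 matrix glycoproteins passed 2-fold there, with median log2 ratios of -0.17 and 0.13, and 3 of 8 genes of Hox groups 5 to 9 were at least 2-fold lower.

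Against 384 other WT cells with at least 2 Upk3b UMIs, 35 genes (0.456%) were at least 2-fold higher and 35 (0.456%) at least 2-fold lower. The Upk3b cells had no limit on globin or Pitx1, so the rule fixed part of the lower genes. Of 8 measured erythroid genes 7 were at least 2-fold lower, with summed levels of 437 CPM in matrix-rich cells and 1511 CPM in the Upk3b cells. Hpgd (2.72, 2.08 to 3.59), Agtr1a (2.48, 1.92 to 3.23), Col3a1 (2.42, 2.24 to 2.60), Asb4, Spon2 and Col1a1 (2.01, 1.83 to 2.21) had the highest ratios there among genes with at least 50 CPM. The lowest among those genes, besides Upk3b, which chose the Upk3b cells, belonged to Slc9a3r1 (0.449, 0.353 to 0.568), the mesothelial gene Lrrn4 (0.491, 0.397 to 0.604), Slc2a3, Nexn and Fdps. Igfbp2 had a ratio of 1.00 (0.934 to 1.08) and Smoc2 one of 1.15 (1.07 to 1.24). Of genes with at least 20 UMIs, 1.25% were at least 2-fold higher and 1.21% at least 2-fold lower, against 2 and 0 of 7 fibrillar collagens, 4 and 0 of 21 matrix glycoproteins and 0 and 2 of 7 mesothelial genes. Postn is 1 of those 4 glycoproteins and Upk3b 1 of those 2 mesothelial genes, and the choice of the cells fixed both. Against the 2955 other cells with a Hand1 UMI and less than 1% globin, 27 genes (0.353%) were at least 2-fold higher and 46 (0.602%) at least 2-fold lower. Dcn (2.94, 2.58 to 3.36), Fam46a (2.90, 2.57 to 3.28), Col3a1 (2.53, 2.42 to 2.66), Agtr1a, Spon2 and Col5a2 led that comparison among genes with at least 50 CPM, and Ttr (0.0968), Spink1 (0.161), Slc9a3r1, Prtg, Prdx6 and Slc2a3 ended it. Of genes with at least 20 UMIs, 1.7% were at least 2-fold higher and 3.97% at least 2-fold lower, against 3 and 1 of 8 fibrillar collagens and 6 and 2 of 29 matrix glycoproteins, with Postn 1 of the 6. Hox groups 5 to 9 had none higher and 4 of 13 lower. The IGF and imprinted list had 1 of 19 higher and 1 lower there, the fibroblast and feeder list 4 of 17 higher and 2 lower, the mesenchymal transcription factors none of 15 higher and 2 lower, and the mesothelium list 1 of 7 higher and none lower.

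Unsupervised clustering of the WT library placed 402 of the 431 matrix-rich cells (93.3%, exact interval 90.5 to 95.4%) in 3 of 12 clusters, which are given by number and leading genes. Cluster 3, led by Hpgd, Tgfbi, Agtr1a, Spon2 and Dcn, held 206 of them, 22.7% of its 908 cells. Cluster 5, led by the mitotic genes Nusap1, Prc1 and Cenpf, held 136, 20.9% of its 650 cells. Cluster 4, led by Upk1b, Upk3b and Igfbp2, held 60, 17.5% of its 342 cells. Within the matrix-rich cells, Col3a1 stood at 787 CPM in cluster 3, 551 CPM in cluster 5 and 406 CPM in cluster 4, and Col1a1 at 412, 329 and 194 CPM. Smoc2 varied less, with 413 CPM in cluster 3, 436 CPM in cluster 5 and 459 CPM in cluster 4. Postn and Lum helped to form the clusters, so these values describe them. No cell of clusters 6, 10 and 11, led by Klf1, Clps and Rhox6, met the rule.

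**Figure D5:**
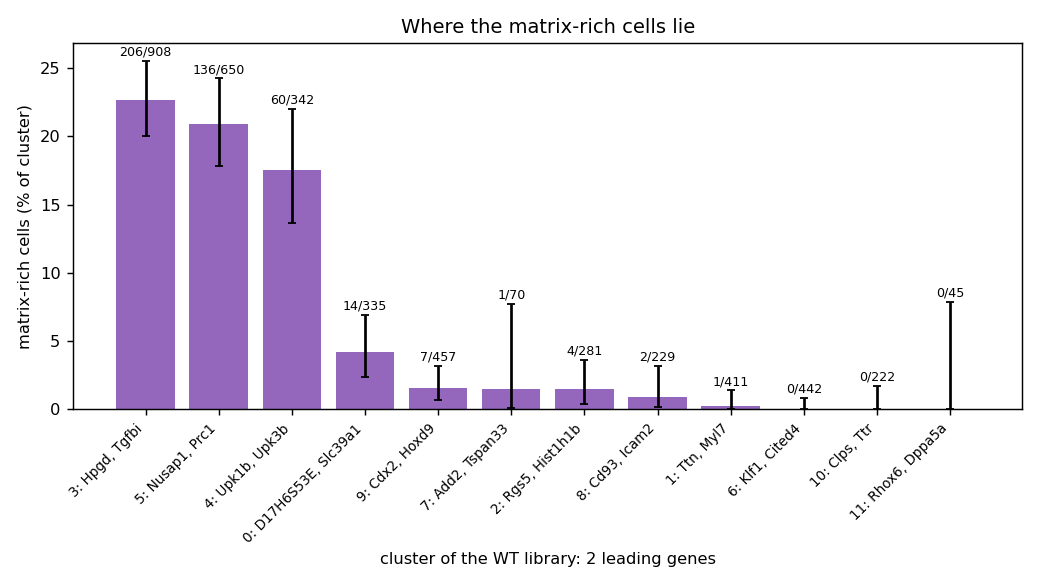
Matrix-rich cells as a share of each WT cluster (%, bars from 0, exact binomial 95% intervals), with the 2 leading genes of each cluster below and matrix-rich over all cells of the cluster above each bar. Clusters 3, 5 and 4 reach 22.7%, 20.9% and 17.5%.

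Over the 421 thinned matrix-rich cells, the levels of 2793 genes were compared with that of Col3a1. After mitochondrial and ribosomal protein genes and names with Gm or Rik were left out, the most alike was Col1a1 (Pearson r = 0.32). Next came Fn1 (0.31), Col1a2 (0.28), Malat1 (0.28), Serf2 (0.20) and Igf2 (0.20). All 6 correlations are weak, come from cells of 1 library and share its depth, and are given as a description.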

How the data were processed

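Single-cell RNA was measured in 1 WT and 1 TKO library at day 5. The other 6 samples of the series, WT pull-downs of 5-hydroxymethylcytosine at days 0, 2 and 5, were not used here. The authors deposited 1 table of raw counts for each library, read here as UMIs, with 37537946 in 4395 WT cells and 33602635 in 3223 TKO cells. Per the submitters' processing notes, Seurat 3 and mm10 were used, with no role given, beside BSMAP, MACS2 and DESeq2. Aligner, chemistry and earlier filters: not given in the sources used here. The TKO header named 3224 barcodes for 3223 values, so its cells were read by position. In 116 row names the tables differed only in the ending, and rows were matched by position.

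Counts were summed over the cells of a set and scaled to CPM, with exact Poisson intervals, and ratios and shares had exact binomial (Clopper-Pearson) 95% intervals. PCR and cells of 1 culture are not independent, so intervals cover counting error only. Folds used a minimum of 10 CPM in the higher set, or 20 UMIs for lists, and log2 ratios a prior of 0.5 UMIs. Genes at 0 are given as counts. WT cells were clustered with scanpy 1.11.5 (10000 UMIs per cell, 2000 variable genes, 30 components, 15 neighbours, Leiden resolution 0.8). No doublet caller was run, and cells with many UMIs or markers of other cells were left out as alternatives. The summing and the intervals were tested on simulated data. Named genes were the 5 markers, the 15 highest and 12 lowest ratios with at least 50 CPM, the 6 at either end against other sets, list members at either end, and the 6 most correlated with Col3a1. Rankings over all genes left out mitochondrial and ribosomal protein genes and names with Gm or Rik. The members and lists were chosen with earlier results of these data known. Results for some genes that the rule names are not reported here.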

Additional observations from a re-analysis of the deposited data

How the results depend on the processing

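The share of matrix-rich cells followed the limits, with 16.4% at 2 Postn and 1 Lum UMIs, 4.80% at 5 and 3, and 12.2% with the Pitx1 condition dropped. The genes at least 2-fold higher and lower numbered 36 and 33 of 2886 with at least 50 CPM. They numbered 555 and 1408 of 14013 with no CPM minimum and at least 10 UMIs. Against the 1658 other WT cells without Postn and Lum UMIs they numbered 588 and 380 of 7866, and the rule genes chose that reference. They numbered 27 and 46 of 7638 against the other Hand1-holding cells, an alternative chosen after seeing the data. Centring on the median ratio gave 52 higher of 7725, and totals without mitochondrial and ribosomal protein genes gave 253 lower of 8729. The sign turned for Cited4 (0.71) and Alas2 (0.23) on the log2 scale against the Hand1-holding cells, and the cause was not tested. The log2 ratio of Col3a1 lay between 1.34 and 3.53 over all alternatives. Leaving out cells above 15907 UMIs, which took 23 matrix-rich cells, gave 107 higher and 175 lower of 7712. Leaving out cells with 3 marker genes of another kind, 3 of them matrix-rich, gave 75 and 124 of 7631. No paired analysis was possible because the results come from no test and each group has 1 library. With 1 library, cells are not replicates, and genes under 10 CPM rest on few UMIs.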
